A study of Mus musculus with 11 samples.

Results

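In all, 10 receptor genes of the TGF-beta superfamily were followed through a mouse melanoma progression series: Acvrl1, Eng, Tgfbr1, Tgfbr2, Tgfbr3, Acvr1, Acvr1b, Bmpr1a, Bmpr2 and Acvr2a. They were taken from a list of receptor symbols, and all 10 were among the 14272 genes measured. Acvrl1 was chosen by its own measured level, which was higher in the derived lines than in melan-a in these same libraries, so its contrasts with melan-a are described and not tested. The series holds melan-a, a line of spontaneously immortalized, nonmalignant melanocytes, and 3 lines derived from it by repeated loss of anchorage: 4C (pre-malignant), 4C11- (melanoma, non-metastatic) and 4C11+ (metastatic melanoma). Melan-a and 4C11+ have an epithelial morphology and 4C and 4C11- a mesenchymal one. All lines thus share 1 origin, each stage is a single line, and melan-a alone was grown with the phorbol ester PMA (200 nM, against 0 nM in the others), so an effect of PMA and an effect of the line cannot be told apart in any contrast with melan-a. Total RNA was sequenced from separate cultures, and 11 libraries were used: melan-a replicates 2 and 3, and replicates 1 to 3 of 4C, 4C11- and 4C11+. In bulk RNA of this kind, fewer cells of a type and less RNA per cell cannot be told apart.

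Ligands of this superfamily bind pairs of type II and type I receptors, which are serine/threonine kinases. The type II receptor phosphorylates the type I receptor, and the type I receptor then phosphorylates SMAD proteins that enter the nucleus. TGFBR1 (ALK5) and ACVR1B (ALK4) pass the signal to SMAD2 and SMAD3, whereas ACVRL1 (ALK1), ACVR1 (ALK2) and BMPR1A (ALK3) pass it to SMAD1, SMAD5 and SMAD9. TGFBR2 is the type II receptor for TGF-beta, BMPR2 serves BMPs and ACVR2A serves activins and BMPs. Endoglin (Eng) and betaglycan (Tgfbr3) are co-receptors without a kinase. ACVRL1 and endoglin are best known from endothelial cells, where mutations in either cause hereditary hemorrhagic telangiectasia. TGF-beta is a classical inducer of epithelial-to-mesenchymal transition.

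Values are log2 CPM, the log2 of read counts scaled to library size. The libraries also share 1 highest value (13.7) and have medians of 4.57 to 4.58, as after a quantile step. CPM levels and sums are thus not taken as counts scaled to library size alone. Depth, estimated from the value at 40 reads and counted over genes, was between 3.50 and 7.42 Mreads per library. A quantile step would shift that value, so these depths are rough and do not rank the libraries. Libraries of 1 line correlated with r between 0.888 and 0.981. Both melan-a libraries (r = 0.907) and 4C11- replicate 1 stood apart: 31.0% of all genes in 4C11- replicate 1 lay more than 1 log2 unit from the mean of the other 4C11- libraries. The 9 of 10 melanocyte markers with a value summed to 1965 to 9185 CPM in melan-a and 11301 to 13596.5 CPM in 4C11+, but to 3.94 to 8.62 CPM in 4C and 4.27 to 12.8 CPM in 4C11-. With limma, 9 of these 9 markers were lower in 4C than in melan-a (7.55% of all genes) and 8 of 9 in 4C11- (6.05%). The melanocyte identity of 4C and 4C11- was thus not visible in the sums. Not every marker set these lines apart from melan-a. Tyr, which encodes tyrosinase, did not exceed 3 reads in any 4C or 4C11- library, nor in melan-a replicate 2. Pmel was at 2.41 and 2.95 log2 CPM in melan-a and at 2.54 in 4C11- replicate 1. The sum of the 5 of 10 fibroblast and mural markers with a value moved the other way. It was at most 210 CPM in melan-a and 51.6 to 62.8 CPM in 4C11+. In 4C it was 2313 to 2633 CPM, and in 4C11- 2004 to 2241 CPM. Most of it in 4C and 4C11- was Col1a1 (means of 10.9 and 10.6 log2 CPM). In 4C11+, 4 of these 5 were lower than in 4C (14.6% of all genes) and 4 lower than in 4C11- (15.4%). Cspg4 did not follow, at 4.15 to 4.69 in 4C11+ and 1.77 to 2.85 in 4C. Both sums followed the contrast between mesenchymal-like and epithelial lines reported for the receptors, and their part in it was not tested.

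Acvrl1 was nearly absent from melan-a and present in every derived library. It stood at -0.25 log2 CPM in melan-a replicate 2 and -2.58 in replicate 3, which correspond to 3 and 0 reads. It was at 5.66, 5.21 and 5.80 in 4C, at 6.15, 4.48 and 3.95 in 4C11-, and at 6.18, 6.27 and 6.59 in 4C11+. No melan-a library reached any derived library, and the 4C11+ libraries were higher than all others. Because melan-a did not exceed 3 reads, only a lower bound can be given against the value of 3 reads in each melan-a library: at least 62.0-fold higher in 4C, at least 38.2-fold in 4C11- and at least 107-fold in 4C11+. This pattern chose the gene and carries no p value.

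Among the derived lines, the contrasts of Acvrl1 were not used for the choice and were tested with limma. The mean was 6.35 ± 0.21 (SD, n = 3) in 4C11+, 5.56 ± 0.31 (n = 3) in 4C and 4.86 ± 1.15 (n = 3) in 4C11-. The 4C11+ libraries were above the 4C11- libraries without overlap by 1.49 log2 units (SE 0.61, 95% interval 0.15 to 2.83), and the limma test did not pass (adjusted p = 0.0858). The SE pools the spread of all lines, so it includes melan-a, where Acvrl1 had 3 and 0 reads (SD 1.65, n = 2). It is not the spread of 4C11+ and 4C11- alone. That outcome depended on single libraries. For Acvrl1 the limma test passed without 4C11- replicate 1 (2.13, adjusted p = 0.0127), and also without melan-a replicate 2 (1.49, adjusted p = 0.0330) or without melan-a replicate 3 (1.49, adjusted p = 0.0322). With a pseudocount of 1 CPM the limma contrast Acvrl1, 4C11+ against 4C11- passed too (1.45, adjusted p = 0.0301). Neither 4C11+ against 4C (0.79, interval -0.55 to 2.13, limma adjusted p = 0.353) nor 4C11- against 4C (-0.70, interval -2.04 to 0.64, limma adjusted p = 0.680) passed, although the fit with only the 2 lines compared gave an adjusted p of 0.0210 for Acvrl1, 4C11+ against 4C. The order of the means was therefore 4C11+, 4C, 4C11- and melan-a, with no neighbouring pair of derived lines separated by the test.

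**Figure D1:**
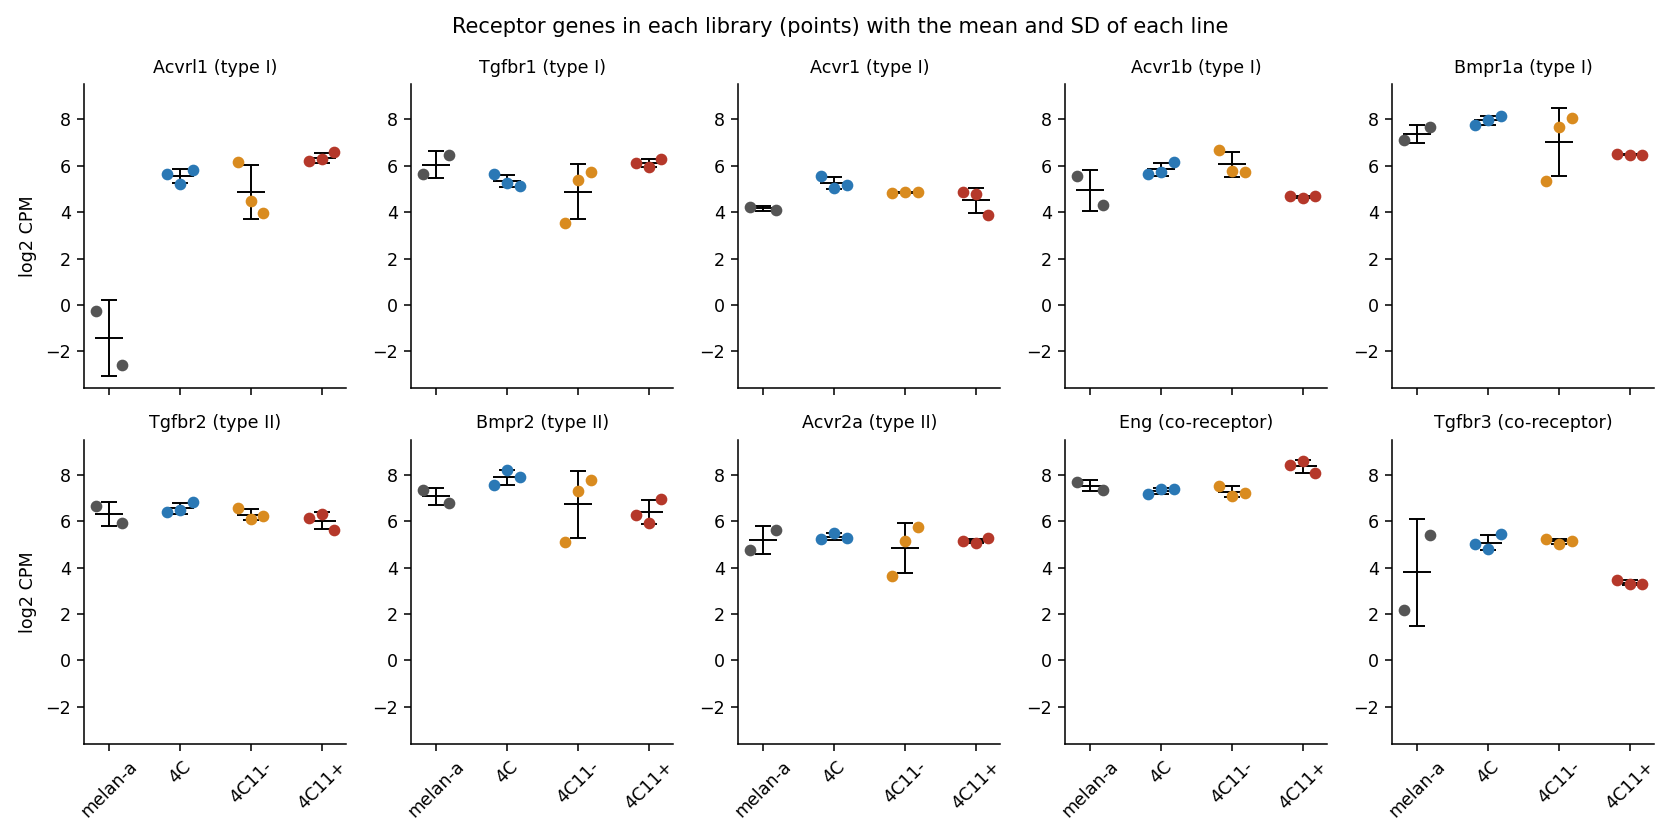
Level of the 10 receptor genes in each library, in log2 CPM on the vertical axis, with the 4 lines on the horizontal axis. Points are libraries, and the bars give the mean and SD of each line. Acvrl1 lies below 0 in both melan-a libraries and above 3.9 in every derived one, Eng is highest in 4C11+, and 1 4C11- library is low in Tgfbr1, Bmpr1a, Bmpr2 and Acvr2a.

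The setting in which Acvrl1 appeared was checked against endothelial markers, of which 2 of 10 had a value, Cdh5 and Vwf. Their summed level was 1.02 to 1.54 CPM in 4C11+, 3.38 to 21.2 CPM in 4C, 95.8 to 178 CPM in 4C11- and 5.25 to 30.2 CPM in melan-a. Cdh5, the endothelial cadherin, did not exceed 3 reads in melan-a or in 4C11+, the line with the highest Acvrl1, while it was at 6.54 to 7.43 log2 CPM in 4C11-. The macrophage markers (2 of 6 with a value) summed to 3.90 to 8.65 CPM in the derived lines and to 7.22 to 82.9 CPM in melan-a.

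Once scaled to exon length, which allows genes to be compared with each other, the receptors changed order between lines. By the line means Eng was the first of the 10 in all 4 lines, with a mean level of 6.34 log2 CPM per kb in 4C11+ and of 5.26 to 5.51 in the other lines, although Bmpr1a came within the SD of Eng in 4C (5.28 against 5.29). Acvrl1 was the tenth in melan-a (-3.51), the sixth in 4C (3.47), the fifth in 4C11- (2.77) and the second in 4C11+ (4.26). The order in 4C11- rested on replicate 1: in an average without it, tried after seeing the data, Bmpr1a was the first (5.18), Eng the second (5.13) and Acvrl1 the last (2.12). The value of Acvrl1 in melan-a stands for 3 and 0 reads and is not a measured level. In 4C11+ Acvrl1 stood above Bmpr1a (3.81) and Tgfbr1, the next type I receptors. Bmpr1a was the second in the other 3 lines, and Tgfbr3 was the last in 4C and 4C11+. The exon length pools all annotated transcripts of a gene, and no isoform was resolved.

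**Figure D2:**
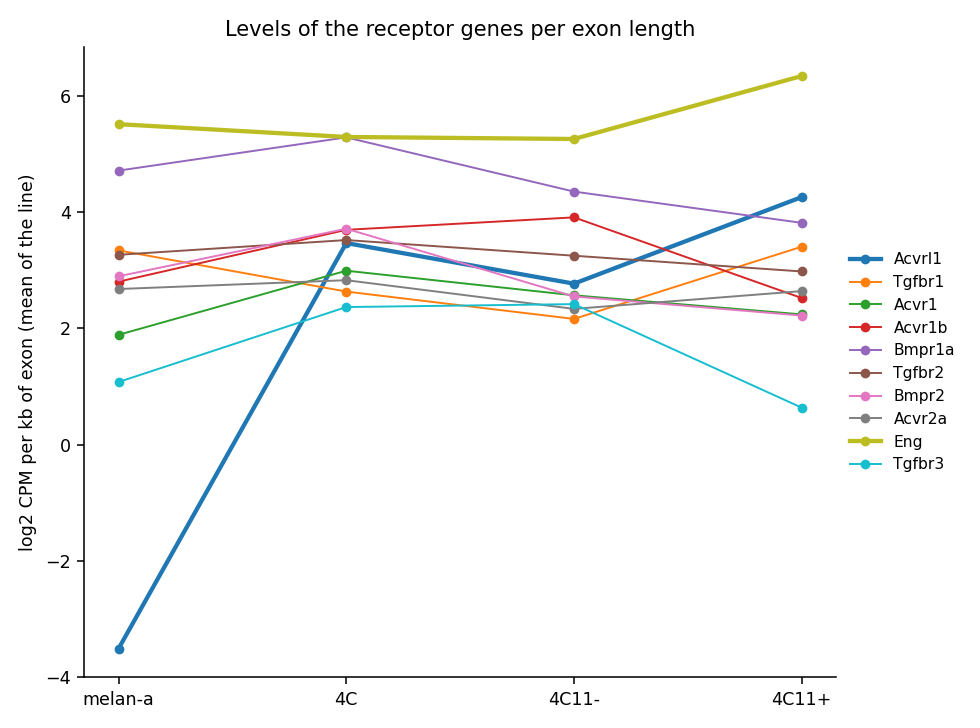
Mean level of each receptor gene in each line, as log2 CPM per kb of exon on the vertical axis. Each line of the plot is a gene, and Acvrl1 and Eng are drawn thick. Acvrl1 goes from -3.51 in melan-a, where it had 3 and 0 reads, to 3.47 in 4C, 2.77 in 4C11- and 4.26 in 4C11+.

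The step from melan-a to 4C asks which receptors changed with the first, pre-malignant stage. Besides Acvrl1, which was not tested, 1 of 9 receptors passed, where 15.2% of all genes did. This was Acvr1, the type I receptor that carries signals from several BMPs. It was at 4.24 and 4.08 in melan-a and at 5.56, 5.05 and 5.18 in 4C, without overlap (1.10 log2 units higher, SE 0.33, limma adjusted p = 0.0412). The call was lost in 9 of 11 fits that left out a library, with adjusted p up to 0.140. Of these 9 receptors, 5 had no overlap between 4C and melan-a, against 42.1% of all genes. Acvr1b, the activin type I receptor, was 0.89 higher (SE 0.40, adjusted p = 0.171), and Tgfbr1 was 0.71 lower (difference -0.71, SE 0.53, adjusted p = 0.446). Tgfbr3 could not be placed in melan-a, where its libraries were at 2.17 and 5.40. Its difference from 4C was 1.29 (limma adjusted p = 0.249), 2.91 without melan-a replicate 3 and -0.33 without melan-a replicate 2. Each of these last fits leaves 1 melan-a library and cannot measure the spread of melan-a.

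The step from 4C to 4C11- compares the pre-malignant with the non-metastatic tumor line, both mesenchymal. No receptor passed (0 of 10 with limma, and 0 at an unadjusted p under 0.05), where 1.67% of all genes did. The differences ran from -1.17 for Bmpr2 (interval -2.40 to 0.07) to 0.21 for Acvr1b (interval -0.57 to 0.99), so changes of about 1 log2 unit in several receptors were not detectable here. Acvr1 was the 1 receptor of 10 without overlap, against 19.3% of all genes, with 4.81, 4.86 and 4.85 in 4C11- below its 3 values in 4C (difference -0.42, limma adjusted p = 0.590). Against melan-a, 4C11- also showed 0 of 9 receptors past the limma threshold (2 at an unadjusted p under 0.05), where 13.6% of all genes passed, and 2 of 9 had no overlap (Acvr1 and Acvr1b), against 36.6% of all genes. With 1 melan-a library left, the difference was 1.73 for Acvr1b without melan-a replicate 2. For Tgfbr3 it was 2.96 without melan-a replicate 3 and -0.28 without melan-a replicate 2.

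In 4C11+, the metastatic and again epithelial line, the co-receptors parted: Eng was higher and Tgfbr3 lower than in both mesenchymal-like lines, and Acvr1b was lower. Eng stood at 8.44, 8.58 and 8.05 in 4C11+, against 7.15, 7.40 and 7.37 in 4C, 7.52, 7.10 and 7.20 in 4C11-, and 7.70 and 7.36 in melan-a. Every 4C11+ library was above every other library. The difference was 1.08 log2 units against 4C11- (SE 0.21, limma adjusted p = 0.00242), 1.05 against 4C (SE 0.21, adjusted p = 0.00279) and 0.83 against melan-a (SE 0.24, adjusted p = 0.0346). The contrasts with 4C11- and 4C passed in all 11 fits that left out a library, whereas the contrast with melan-a was lost in 6 of them, with adjusted p up to 0.141. These 3 contrasts share the 4C11+ libraries.

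Acvr1b and Tgfbr3 were the receptors that fell. Acvr1b was at 4.70, 4.61 and 4.68 in 4C11+, against 5.64, 5.71 and 6.16 in 4C and 6.69, 5.75 and 5.71 in 4C11-, with no overlap. It was lower than in 4C11- (difference -1.39, SE 0.36, limma adjusted p = 0.0118) and than in 4C (difference -1.17, SE 0.36, adjusted p = 0.0264), and the second of these calls was lost in 5 of 11 fits without a library (adjusted p up to 0.103). In melan-a, at 5.57 and 4.32, its libraries spanned the gap between these lines. Tgfbr3, which presents TGF-beta to the type II receptor, was at 3.46, 3.28 and 3.29 in 4C11+, against 5.01, 4.78 and 5.44 in 4C and 5.22, 5.03 and 5.13 in 4C11-. The 4C11+ libraries thus lay below all 4C and 4C11- libraries, and 4C and 4C11- overlapped. The differences were -1.78 against 4C11- (SE 0.60, limma adjusted p = 0.0430) and -1.73 against 4C (SE 0.60, adjusted p = 0.0473), and they were lost in 9 and 8 of 11 fits without a library (adjusted p up to 0.108 and 0.145). The SD of Tgfbr3 was 2.29 (n = 2) in melan-a and at most 0.34 (n = 3) in the other lines, and without melan-a replicate 2 the same differences had adjusted p of 0.000257 and 0.000302. Against melan-a itself the sign for Tgfbr3 turned with the library, being 1.18 without replicate 3 and -2.06 without replicate 2. Each of these fits leaves 1 melan-a library and cannot measure the spread of melan-a.

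Bmpr1a and Bmpr2, which bind BMPs, did not pass in 4C11+ against 4C with all libraries. Bmpr1a was at 6.52, 6.44 and 6.48 in 4C11+ and at 7.75, 7.98 and 8.12 in 4C (difference -1.47, SE 0.53, limma adjusted p = 0.0545). Bmpr2 was at 6.28, 5.91 and 6.96 in 4C11+ and at 7.55, 8.18 and 7.91 in 4C (difference -1.49, SE 0.56, adjusted p = 0.0627). The libraries of these lines did not overlap for either gene. Both passed when 4C11- replicate 1 or 3 was left out: without replicate 1 the adjusted p was 0.000234 for Bmpr1a and 0.00239 for Bmpr2, and without replicate 3 it was 0.0307 and 0.0389. The differences of Bmpr1a and Bmpr2 from 4C stayed the same, since 4C11- enters that contrast only through the pooled SE. Without replicate 1 both were also lower in 4C11+ than in the remaining 4C11- libraries (Bmpr1a -1.37, adjusted p = 0.00107, and Bmpr2 -1.15, adjusted p = 0.0210).

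Counted over all receptors, 3 of 10 passed in 4C11+ against 4C11-, where 31.1% of all genes passed, and 3 of 10 passed in 4C11+ against 4C, where 31.7% did. The receptors thus passed about as often as genes at large in both contrasts, which share the 4C11+ libraries. Without 4C11- replicate 1 the counts were 5 and 6, and the count against 4C was 1 without 4C replicate 2 or 3 or without any 1 of the 4C11+ libraries. The libraries of 4C11+ and 4C did not overlap for 9 of 10 receptors, with Acvr2a the exception, against 51.3% of all genes, and those of 4C11+ and 4C11- for 5 of 10, against 47% of all genes. Against melan-a, 1 of 9 receptors (Eng) passed, where 15.9% of all genes did, and 2 of 9 had no overlap (Bmpr1a and Eng), against 46.6% of all genes. Tgfbr2, the type II receptor for TGF-beta, was between 5.60 and 6.80 in all 11 libraries, and no contrast passed.

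**Figure D3:**
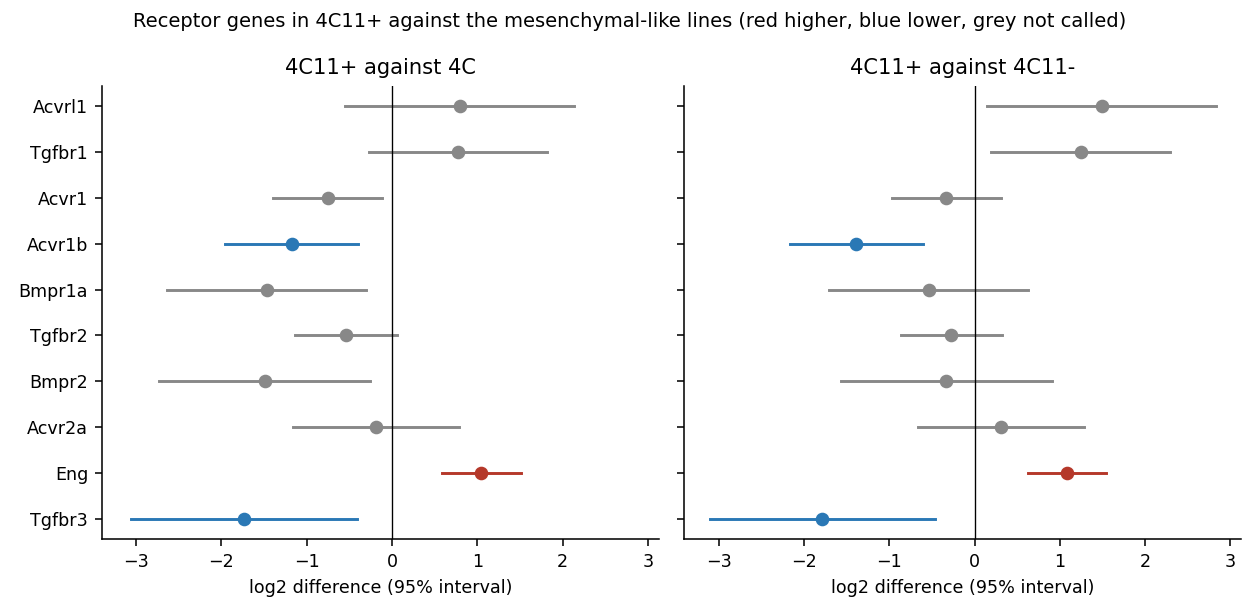
Difference of each receptor gene between 4C11+ and 4C (left) and between 4C11+ and 4C11- (right), in log2 units with the 95% interval on the horizontal axis. Red marks genes higher and blue genes lower at an adjusted p under 0.05, and grey marks the rest. Eng is higher, Acvr1b and Tgfbr3 are lower in both panels, and the intervals of Bmpr1a and Bmpr2 lie below 0 on the left.

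Eng and Acvr1b, which moved in opposite directions in 4C11+ in both contrasts, also differ in the sequence around their annotated starts, and the windows are shown for that reason. Each runs from 250 bases before to 50 bases after a RefSeq start (GRCm38.p6, plus strand): chr2:32646345-32646644 for Eng and chr15:101173822-101174121 for Acvr1b. Capitals mark the letters GGCGCC, a SMAD response motif of BMP target genes, and CACGTG, the E-box read by MITF and MYC.
Eng: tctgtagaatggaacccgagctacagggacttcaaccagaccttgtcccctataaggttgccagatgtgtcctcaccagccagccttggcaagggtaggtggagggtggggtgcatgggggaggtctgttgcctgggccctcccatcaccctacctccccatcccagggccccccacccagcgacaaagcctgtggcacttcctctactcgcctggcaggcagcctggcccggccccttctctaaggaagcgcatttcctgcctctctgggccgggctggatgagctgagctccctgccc
Acvr1b: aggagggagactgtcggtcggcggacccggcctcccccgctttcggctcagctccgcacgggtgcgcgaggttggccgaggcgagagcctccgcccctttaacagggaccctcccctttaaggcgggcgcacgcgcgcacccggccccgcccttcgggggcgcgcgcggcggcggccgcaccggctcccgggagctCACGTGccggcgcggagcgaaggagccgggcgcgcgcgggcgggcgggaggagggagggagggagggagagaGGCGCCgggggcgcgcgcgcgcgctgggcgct
GGCGCC occurred 1 time in the Acvr1b window, where 11.9% of 32851 promoter windows held it, and CACGTG 1 time, where 7.15% did. Neither occurred in the Eng window. GGGCGG, the GC box, occurred 4 times in Acvr1b on either strand and 0 times in Eng (35.7% of windows held it), and GC content was 79.7% against 63.3%. Among the 9 windows of 8 receptors, GGCGCC was also present 1 time each in Bmpr1a, Bmpr2 and 1 of the 2 Tgfbr1 windows, GTCTAGAC in none (0.213% of all windows), CATGTG in none (14.2%) and CAGACA in 1 Tgfbr1 window (21%). All motifs were searched on both strands, none is contained in another, and a match is a description only.

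Taking mesenchymal-like (4C, 4C11-) against epithelial lines (melan-a, 4C11+) asks which receptors followed the morphology. Of 9 receptors tested, 4 passed, where 29.7% of all genes did: Acvr1b (1.14 higher, SE 0.27, limma adjusted p = 0.00710), Tgfbr3 (1.54 higher, SE 0.45, adjusted p = 0.0238) and Acvr1 (0.72 higher, SE 0.22, adjusted p = 0.0282) were higher in the mesenchymal-like lines, and Eng was lower (difference -0.65, SE 0.16, adjusted p = 0.00865). Only Acvr1b separated all libraries of the 2 kinds (1 of 9 receptors, against 13.9% of all genes). The gap was narrow, with melan-a replicate 2 at 5.57 and 4C replicate 1 at 5.64, and melan-a replicate 3 was at 4.32. For Acvr1, only 4C against melan-a passed among the pairs of lines that differ in morphology. Acvr1 in 4C11+ overlapped with 4C11- (difference -0.33, limma adjusted p = 0.427). For Eng the contrast joined unlike lines, since Eng in 4C11+ was higher than in melan-a and Eng in melan-a overlapped with 4C and 4C11-. Acvr1 lost its call in 3 of 11 fits without a library (adjusted p up to 0.0755), and Tgfbr3 in 1 (adjusted p = 0.0571 without 4C replicate 3). The size for Tgfbr3 turned on melan-a, being 0.73 without melan-a replicate 2 and 2.34 without melan-a replicate 3. Without 4C11- replicate 1, 7 of 9 receptors passed, the added ones being Bmpr1a (0.97, adjusted p = 0.000834), Bmpr2 (0.98, adjusted p = 0.00740) and Tgfbr1 (-0.64, adjusted p = 0.0312).

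In all, 4 receptors were low in 1 library of the mesenchymal-like lines, 4C11- replicate 1, and Acvrl1 was high there. Tgfbr1 was at 3.51 in that library and at 5.37 and 5.72 in the other 4C11- libraries. Bmpr1a was at 5.35 against 7.66 and 8.04. Bmpr2 was at 5.08 against 7.31 and 7.75, and Acvr2a, the activin type II receptor, at 3.65 against 5.13 and 5.74. These are gaps of 1.78 to 2.50 log2 units from the mean of the others, whereas Acvrl1 was 1.94 above it, Acvr1b 0.97 above, and Acvr1, Tgfbr2, Tgfbr3 and Eng lay within 0.40. The exons spanned 5686 bases in Acvr2a, 6351 in Bmpr1a, 6534 in Tgfbr1 and 17983 in Bmpr2, against 6545 in Tgfbr3 and 8187 in Tgfbr2. Over all genes, the median difference of this library from the others was 0.42 among the 3564 genes with the shortest exons and -0.11 among the 3564 with the longest. The part of length in these departures was not tested.

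**Figure D4:**
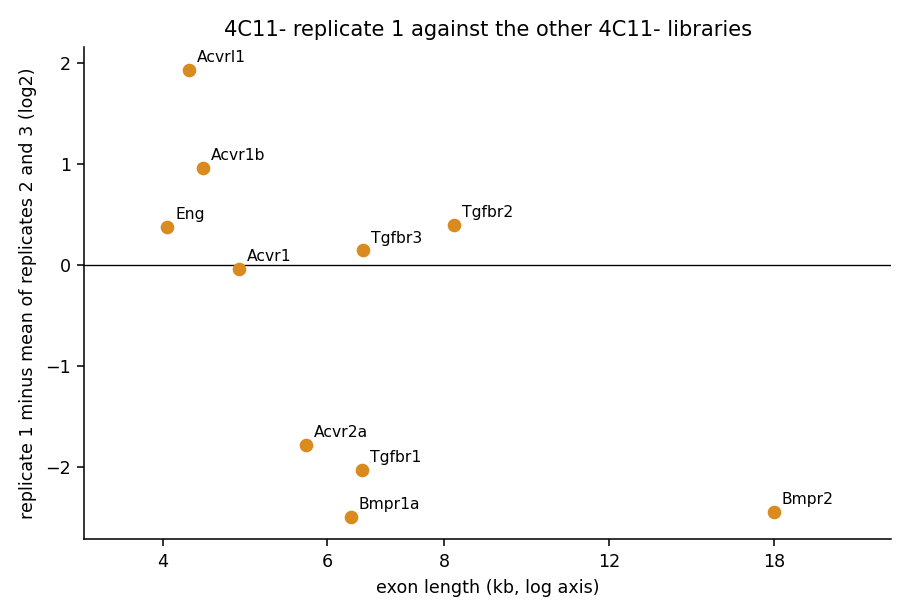
Level of each receptor gene in 4C11- replicate 1 minus its mean in replicates 2 and 3, in log2 units on the vertical axis, against the exon length of the gene in kb on a logarithmic horizontal axis. Each point is a gene. Tgfbr1, Bmpr1a, Bmpr2 and Acvr2a lie 1.78 to 2.50 units below 0 and Acvrl1 lies 1.94 above it.

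Acvrl1 and Acvr1b are neighbours on the plus strand of chromosome 15 (GRCm38), at chr15:101128522-101145336 and chr15:101174067-101213684, 28730 bases apart. They did not share a pattern: from 4C to 4C11+ the levels of Acvrl1 were 5.21 to 5.80 and 6.18 to 6.59, and those of Acvr1b 5.64 to 6.16 and 4.61 to 4.70. The other genes with a value within 100000 bases of Acvrl1 were looked at after its values were known. Scn8a, a sodium channel gene 82583 bases upstream, was at 4.38 and 4.84 in melan-a, at -2.44 to -0.70 in 4C and 4C11-, and at 6.39 to 6.85 in 4C11+. It thus shared with Acvrl1 its highest level in 4C11+ and not the rise in 4C. Fignl2 and Grasp passed in none of the 7 contrasts. Eng overlaps Fpgs on the opposite strand. Fpgs was lower in 4C11+ than in 4C11- (difference -0.82, SE 0.27, limma adjusted p = 0.0364), opposite to Eng. Acvr2a overlaps Orc4 and Bmpr1a overlaps Gm17110 in the same way. The library kit keeps strand, but the strand setting of the counting was not given in the sources used here, so reads of such pairs may not be fully separated.

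The 5 genes whose level followed Acvrl1 most closely over the 11 libraries, among 11443 genes with a mean log2 CPM of at least 1, were Rab11fip4 (Pearson r = 0.979), Phgdh (0.972), Trim71 (0.968), Ttc39c (0.968) and Fat2 (0.959). The libraries come from 4 lines and are not independent points, and all 5 genes were lower in both melan-a libraries than in every derived library. Phgdh, the first enzyme of serine synthesis, stood at 0.87 and -0.70 in melan-a and between 7.45 and 8.82 in every derived library. Rab11fip4, an effector of the recycling GTPase RAB11, ranged from 5.53 to 5.75 in 4C11+, from 4.49 to 5.46 in 4C and from 3.52 to 4.08 in 4C11-, with 0.06 and -1.42 in melan-a. Its means had the order of the Acvrl1 means, 4C11+, 4C, 4C11- and melan-a. Rab11fip4 was picked by its correlation with Acvrl1 in these libraries, so this order is not a separate result. Among the other receptors, r with Acvrl1 ran from -0.33 for Tgfbr1 to 0.50 for Acvr1.

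The surroundings of the receptors were read from 103 genes in 8 lists of textbook pathway members, of which 61 had a value. The lists were chosen with earlier results of these data known. A value required 1 CPM in 4 or more libraries, so a gene confined to melan-a or to 4C11+ could have none. A gene high only in 4C and 4C11- could have a value through those libraries. The counts below are thus a description, also where they are set beside all genes. In 4C against melan-a, 26 of 61 were higher and 0 lower, that is 42.6% higher where 7.64% of all genes were. That count was 15 without melan-a replicate 3, 16 without 4C replicate 2 and 17 with only the 2 lines compared. In 4C11- against melan-a 21 were higher (7.55% of all genes) and 1 lower (6.05% of all genes), and with only the 2 lines compared 8 passed in all. In 4C11- against 4C 0 passed in either direction with limma (12 at an unadjusted p under 0.05), where 1.26% of all genes were higher and 0.406% lower. In 4C11+ the direction was opposite: 29 were lower and 6 higher against 4C11-, and 29 lower and 5 higher against 4C, that is 47.5% lower in each contrast where 15.4% and 14.6% of all genes were. The background for the higher ones was 15.6% and 17.1%. Against melan-a, 4C11+ had 9 lower (7.52% of all genes) and 2 higher (8.39%). By morphology, 36 were higher (14.3%) and 5 lower (15.3%) in the mesenchymal-like lines. The 2 contrasts of 4C11+ with the mesenchymal-like lines share the 4C11+ libraries.

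By morphology, 5 of the 7 measured ligands were higher in the mesenchymal-like lines (14.3% of all genes). Gdf11 and Bmp8b did not pass in any contrast. Of the 4 measured TGF-beta and activin ligands (11 listed), 3 were higher in 4C than in melan-a (7.64% of all genes). In 4C11+, 2 were lower than in 4C (14.6%) and 2 lower than in 4C11- (15.4%). Inhbb, which encodes the beta B subunit of activin and inhibin, stayed at or under 3 reads in both epithelial lines (-3.15 and -2.58 in melan-a, -2.58 to -2.44 in 4C11+) and ranged from 5.37 to 6.24 in 4C and from 5.10 to 6.38 in 4C11-. It was at least 79.8-fold higher in 4C than in melan-a and at least 59.7-fold lower in 4C11+ than in 4C. Tgfb3 ranged from 6.46 to 7.14 in 4C and from 6.12 to 6.80 in 4C11-, above both melan-a (5.03 and 3.29) and 4C11+ (4.33 to 4.73, with 4C11+ against 4C -2.32, SE 0.40, limma adjusted p = 0.000982). Tgfb1 was higher in 4C than in melan-a (2.94, SE 0.88, adjusted p = 0.0425), where its 2 libraries were at 4.33 and 0.22, and its contrasts between derived lines did not pass. Of the 3 measured BMP and GDF ligands (19 listed), Bmp4 and Bmp7 passed. Bmp4 ranged from 4.32 to 5.41 in 4C and from 4.69 to 5.93 in 4C11-, while melan-a (-0.72 and -1.42) and 4C11+ (-2.58 to -2.44) did not exceed 3 reads. It was at least 41.3-fold higher in 4C than in melan-a and at least 36.4-fold lower in 4C11+ than in 4C11-. Bmp7 differed between the melan-a libraries (5.36 and -1.42), ranged from 7.62 to 7.92 in 4C and from 6.31 to 6.92 in 4C11-, and did not exceed 3 reads in 4C11+, at least 217-fold lower than in 4C. The genes of the ACVRL1 ligands BMP9 and BMP10 (Gdf2 and Bmp10) were not analysed here.

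Most measured proteins that hold ligands back or store them were likewise higher in the mesenchymal-like lines. Nog, the BMP antagonist noggin, did not exceed 3 reads in melan-a and 4C11+, and ranged from 4.04 to 5.10 in 4C and from 3.13 to 4.00 in 4C11-. Fst, the activin antagonist follistatin, was at a mean of 5.47 in 4C and 4.29 in 4C11-, and 4C11+ did not exceed 3 reads, at least 43.7-fold lower than in 4C. Fstl1 went another way: it did not exceed 3 reads in melan-a, held between 2.91 and 3.34 in the mesenchymal-like lines and reached 4.72 to 5.69 in 4C11+, higher than in 4C11- by 2.31 (SE 0.46, limma adjusted p = 0.00258). Of the 6 measured antagonists (18 listed), 5 were higher in 4C than in melan-a (7.64% of all genes). In 4C11+, 4 were lower and 1 higher than in 4C (14.6% and 17.1% of all genes). Among the 8 measured matrix and latency proteins (9 listed), 6 were higher in 4C than in melan-a, and 5 were lower and 1 higher in 4C11+ than in 4C, beside the same shares of all genes. The fibrillin genes Fbn1 and Fbn2, whose products anchor latent ligand in the matrix, were at 6.79 to 8.26 in all 4C and 4C11- libraries. In 4C11+ Fbn2 was at 3 reads or fewer, at least 136-fold lower than in 4C, and Fbn1 was at -0.70 to 0.44.

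Of 10 other receptors and co-receptors listed, 5 had a value. Acvr2b, the second activin type II receptor, was higher in 4C than in melan-a (1.03, SE 0.31, limma adjusted p = 0.0454) and lower in 4C11+ than in 4C (-1.33, SE 0.28, adjusted p = 0.00354) and 4C11- (-1.52, SE 0.28, adjusted p = 0.00162), unlike Acvr2a, which passed nowhere. Neo1 and Rgmb, which act together in BMP co-reception, were higher in 4C11+ than in 4C11- by 1.14 (SE 0.21, adjusted p = 0.00193) and 0.85 (SE 0.28, adjusted p = 0.0368).

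Inside the cell, 3 of 8 SMADs, all of which had a value, were lower in 4C11+ than in 4C11- (15.4% of all genes). Smad4, which both routes share, passed in no contrast. Smad3, the SMAD of the TGF-beta and activin route, ranged from 5.86 to 6.02 in 4C11+, against 7.41 to 7.91 in 4C11-, 7.07 to 7.78 in 4C and 6.83 and 6.02 in melan-a (4C11+ against 4C11- -1.69, SE 0.26, limma adjusted p = 0.000527). Smad6, which inhibits BMP type I receptors, was lower in 4C11+ than in 4C11- (-1.93, SE 0.42, adjusted p = 0.00507), as was Smad7, the inhibitor of both routes (-1.53, SE 0.43, adjusted p = 0.0179). Of the 12 intracellular regulators, all with a value, Ski, a repressor of SMADs, was lower in 4C11+ than in each other line (difference -1.39 to 4C, adjusted p = 0.00731). Fkbp1a, which binds resting type I receptors, was higher in 4C than in melan-a (1.24, SE 0.23, adjusted p = 0.00308) and lower in 4C11+ than in 4C (-0.89, SE 0.20, adjusted p = 0.00619). Strap, which assists SMAD7 at the receptor, was higher in 4C11+ than in 4C (0.99, SE 0.26, adjusted p = 0.0122).

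Most target genes of both routes were lower in 4C11+ than in the mesenchymal-like lines, but not lower than in melan-a by the test. Against melan-a, 4C11+ had 3 lower (7.52% of all genes), 0 higher and 12 not called, and 4C had 7 higher (7.64% of all genes). Of 15 measured (16 listed), 11 were lower and 0 higher in 4C11+ than in 4C11- (15.4% and 15.6% of all genes). Against 4C, 11 were lower and 1 higher in 4C11+ (14.6% and 17.1%), the exception being Id2 (2.21, SE 0.42, limma adjusted p = 0.00187). Their median difference was -2.40 against 4C11- and -2.14 against 4C (-1.78 with genes at 3 reads or fewer set to their bound), where the medians of all genes were 0.12 and 0.08. Id1, a direct target of SMAD1 and SMAD5 and also of ACVRL1 signaling in endothelium, ranged from 1.97 to 3.84 in 4C11+, against 7.42 to 8.96 in 4C11-, 6.17 to 6.46 in 4C and 4.43 and 4.71 in melan-a. It was lower in 4C11+ than in 4C11- by 5.04 (difference -5.04, SE 0.47, adjusted p = 1.07e-05), and the 4C11+ libraries were those with the highest Acvrl1. The levels of Id1 and Acvrl1 were not opposite throughout. The library with the highest Id1 (8.96), 4C11- replicate 1, had Acvrl1 at 6.15, close to the lowest 4C11+ library (6.18). That library stood apart from its line over all genes. In 4C11- replicates 2 and 3, Id1 was at 7.42 and 8.03 and Acvrl1 at 4.48 and 3.95. A relation between these genes was not tested. Cdkn2b, the cell cycle inhibitor p15 induced by TGF-beta, held between 3.89 and 5.64 in the other 3 lines and did not exceed 3 reads in 4C11+, at least 25.0-fold lower than in 4C. Id4 was at 3 reads or fewer in 4C11+ as well, and at 3.19 to 4.85 in 4C11-.

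**Figure D5:**
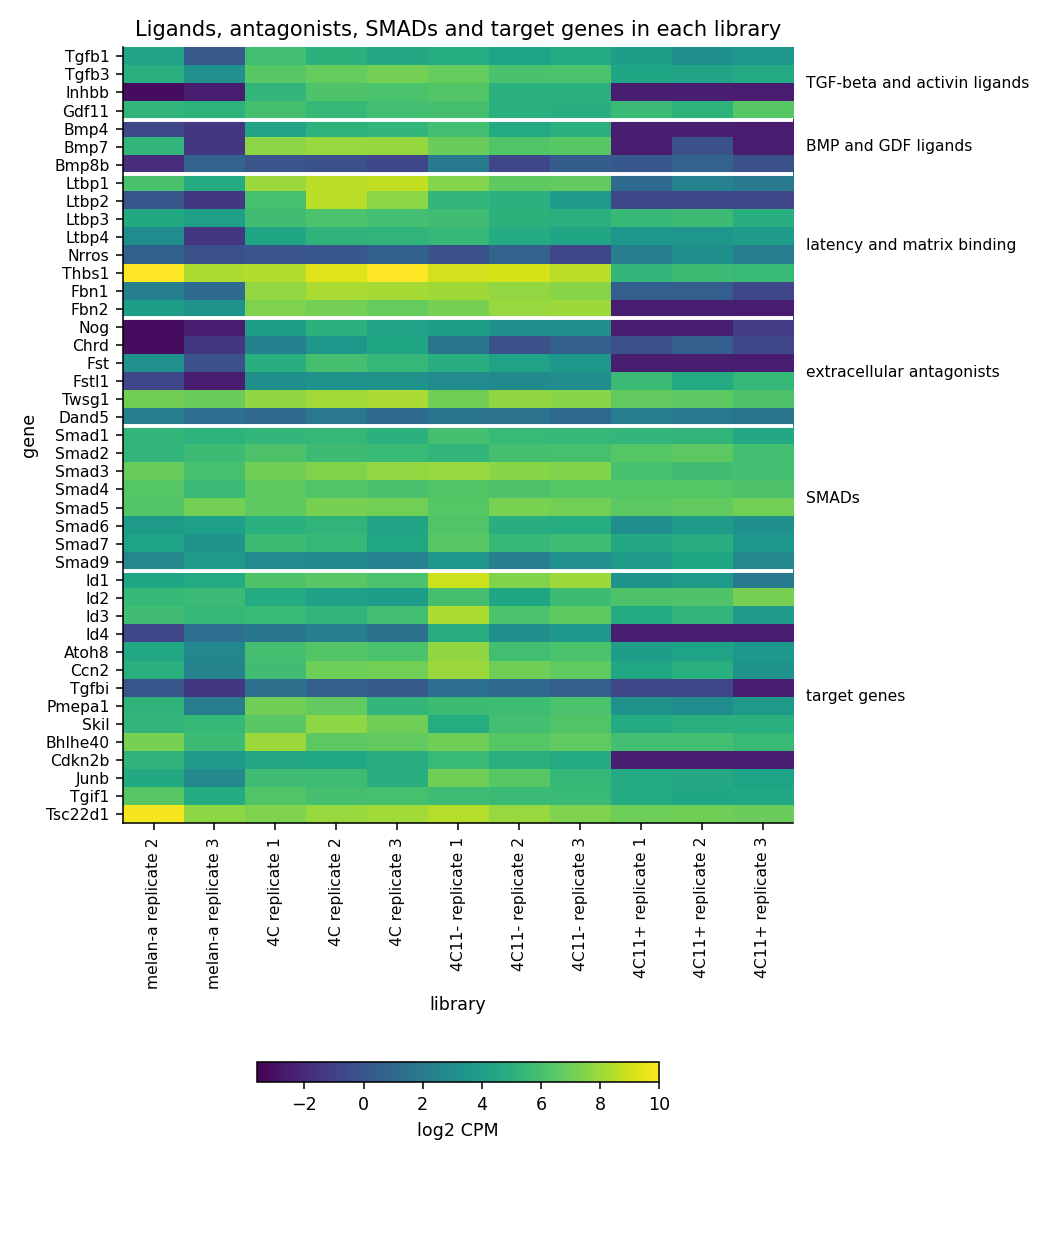
Level of measured ligands, latency and matrix proteins, antagonists, SMADs and 14 of the 15 target genes in each of the 11 libraries, as colour in log2 CPM, with genes in rows and libraries in columns. The 4C and 4C11- columns are bright for Inhbb, Bmp4, Bmp7, Fbn1, Fbn2 and Nog, and the 4C11+ columns are dark for these genes, for Fst, Id4 and for Cdkn2b.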

How the data were processed

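Total RNA of 11 cultures was sequenced (stranded kit, rRNA depleted). The authors aligned reads to GRCm38 with STAR, counted them on Ensembl 90 and ran voom on genes that reached 1 CPM in 4 or more libraries. This gave the deposited log2 CPM, used here unchanged. All libraries share 1 highest value, as after a quantile step. Low values lie on single-read steps, from which reads and depth (3.50 to 7.42 Mreads) were estimated. The depth is rough, since a quantile step would shift the value it rests on. Where no library of a line exceeded 3 reads, a bound was computed from the value at 3 reads.

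A mean per line was fitted over all 11 libraries with limma 3.58.1 in R 4.3.3 (eBayes with trend, two-sided, Benjamini-Hochberg over 14272 genes in each of 7 comparisons, adjusted p under 0.05) and checked on simulated data. Positions and exon lengths came from GENCODE M21, and promoters from RefSeq (none for Acvrl1 and Tgfbr3). Named were all receptors, up to 3 genes per pathway list and comparison (largest differences past the threshold without overlap) and the 5 genes most like Acvrl1. Other names (Id2, Smad4, markers, neighbouring and overlapping genes) were chosen after their values were seen. Receptors and lists were chosen with earlier results of these data known. Alternatives were further quantile normalization, a median shift, a pseudocount of 1 CPM, a minimum mean log2 CPM of 1, the replicate number as a block, no trend, the 2 lines alone, and each library left out. Replicate 1 of melan-a was not used here. The values of 1 target gene are not reported here.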

Additional observations from a re-analysis of the deposited data

Results flagged for a closer look

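In the 6 mesenchymal-like libraries, 4C11- replicate 1 lay far below the rest for 4 of the 10 receptors, its gap to the nearest library being more than 0.625 of the whole range of the 6 values. Tgfbr1 was at 3.51 log2 CPM, against 5.12 to 5.72 in the other libraries. Bmpr1a was at 5.35, against 7.66 to 8.12. Bmpr2 was at 5.08, against 7.31 to 8.18. Acvr2a was at 3.65, against 5.13 to 5.74. In all, 20 groups of libraries were checked this way, and 4 were marked, all for the same library. The groups share libraries and each joins 2 lines, so no number expected by chance can be given. The check was not run over all genes. In this library, 17.5% of all genes lay more than 1 log2 unit below the mean of the other 4C11- libraries.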

How the results depend on the processing

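Among receptor differences past the threshold, 162 refits over all alternatives kept direction and call and 50 kept direction only. Eng in 4C11+ against 4C and 4C11- passed in every fit run. The number of receptors past the threshold was 0 in 4C against melan-a, and 0 in 4C11+ against melan-a, under the replicate block, without the mean-variance trend and with only the 2 lines compared, while in 4C11+ against 4C it was 5 under the replicate block and 7 with only the 2 lines. With only the 2 lines, the pathway lists gave 17 genes, 8 genes and 7 genes past the threshold for 4C, 4C11- and 4C11+ against melan-a, and in 4C11- against 4C they gave 3 with a pseudocount of 1 CPM and 1 under the replicate block. The block turned Acvr2a to 0.18 in 4C11+ against melan-a and to 0.032 between mesenchymal-like and epithelial lines. The cause of these shifts was not tested. The pseudocount shrinks the difference of Acvrl1 from melan-a to 5.04 in 4C, 4.37 in 4C11- and 5.82 in 4C11+.

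Leaving out 1 library gave receptor counts of 0 to 1 for melan-a to 4C, 0 to 0 for 4C to 4C11-, 2 to 5 in 4C11+ against 4C11-, 0 to 1 in 4C11- against melan-a, 0 to 2 in 4C11+ against melan-a, 1 to 6 in 4C11+ against 4C and 3 to 7 for morphology. The pathway lists gave 15 to 28, 0 to 1, 29 to 37, 15 to 24, 8 to 15, 29 to 37 and 34 to 40 in the same order. Library removal is followed by a fit that assumes the lone melan-a library varies like the others. The sign turned in 29 such fits, all for differences that did not pass with all 11 libraries. For 4C against melan-a, the ranges were -0.12 to 0.62 for Tgfbr2, -0.28 to 0.58 for Acvr2a, -0.33 to 2.91 for Tgfbr3. For 4C11+ against 4C11-, the ranges were -1.15 to 0.19 for Bmpr2, -0.29 to 0.75 for Acvr2a. For 4C11+ against melan-a, the ranges were -0.34 to 0.46 for Tgfbr1, -0.91 to 0.35 for Acvr1b, -0.66 to 0.084 for Tgfbr2, -0.47 to 0.40 for Acvr2a, -2.06 to 1.18 for Tgfbr3. For 4C11- against 4C, the ranges were -0.90 to 0.21 for Tgfbr1, -0.11 to 0.39 for Acvr1b, -0.94 to 0.10 for Acvr2a, -0.16 to 0.053 for Eng, -0.10 to 0.23 for Tgfbr3. For 4C11- against melan-a, the ranges were -0.87 to 0.47 for Bmpr1a, -0.39 to 0.35 for Tgfbr2, -0.87 to 0.47 for Bmpr2, -0.79 to 0.25 for Acvr2a, -0.28 to 2.96 for Tgfbr3. Between mesenchymal-like and epithelial lines, the ranges were -0.30 to 0.22 for Acvr2a. Same-numbered libraries of different lines had correlations of their deviations from -0.23 to 0.39 (15 pairs), so the numbers were not taken to pair cultures. The precision is limited by 2 melan-a libraries that differ and by 4C11- replicate 1.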
